A study of Mus musculus with 18 samples.

Results

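The epidermal growth factor (EGF) family signals through the ErbB receptors, and 10 of its genes were followed here after myocardial infarction in the mouse. They were taken by name and Ensembl ID from the 30583 genes of the count table: 6 ligand genes (Hbegf, Ereg, Areg, Tgfa, Btc and Nrg1) and the 4 receptor genes (Egfr, Erbb2, Erbb3 and Erbb4). Earlier results of these data were known when they were chosen. RNA from the left ventricle of 18 male C57BL/6JR mice, 12 weeks old, was sequenced after poly(A) selection, with 1 library per mouse and 3 mice in each of 6 groups. In 5 groups an infarct was made by tying off the left anterior descending coronary artery under sodium pentobarbital, and tissue from the infarcted region was taken either 10 min later or at 1, 6, 24 or 72 h. The sham group (0 h) was operated on in the same way with the suture passed but left untied, and no sham mice were kept for the later times. The title of the study pairs expression with DNA methylation over the course of an infarct, and methylation was not analysed here. The labels give cardiomyocytes as the cell type, but describe no separation of cells, and markers of endothelial cells, fibroblasts and macrophages were present in the sham libraries, so the samples are treated as whole tissue.

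EGF family ligands are made as membrane-anchored precursors that metalloproteases cut free, and they act on nearby cells. Amphiregulin (Areg) and transforming growth factor alpha (Tgfa) bind the EGF receptor, heparin-binding EGF-like growth factor (Hbegf), epiregulin (Ereg) and betacellulin (Btc) bind the EGF receptor or ErbB4, and neuregulin 1 (Nrg1) binds ErbB3 or ErbB4. ErbB2 binds no known ligand and serves as the preferred partner of the others, while ErbB3 has little kinase activity of its own. In the heart, neuregulin from endothelial cells acting on ErbB4 and ErbB2 of cardiomyocytes is needed for the trabeculae of the embryo and for the upkeep of adult muscle.

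Levels are given as CPM, counts per mega (M) counts after scaling of the libraries by TMM (trimmed mean of M-values), and levels of different genes are compared only as CPM per kb of the gene length deposited with the data. Libraries held 18.2 to 25.1 M counts. Differences are log2 fold changes with their standard error (SE) from edgeR's quasi-likelihood model of all 18 libraries, and a gene was called when its Benjamini-Hochberg adjusted p over the 16311 genes tested was under 0.05. Of the 10 genes, 9 passed the low-count filter and Areg did not. All contrasts with sham share the same 3 sham libraries. One library at 6 h, replicate 1, stood apart with 172 CPM of summed atrial markers, against 1.60 and 2.01 CPM in the other 6 h libraries. It also held the most neutrophil marker RNA of its group, as did replicate 3 at 24 h, and results that rest on either are given with and without it.

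Promoter sequence was at hand for 6 of the genes, Areg, Tgfa, Btc, Egfr, Erbb2 and Erbb4, and not for Hbegf, Ereg, Nrg1 and Erbb3. The 250 bases before the start are shown for 3 genes whose levels went different ways, a ligand and a receptor that were higher after infarction and a receptor that was lower. They come from RefSeq on GRCm38.p6, are written 5′ to 3′ on the strand of the gene, and lie at chr5:91139349-91139598 (plus strand, Areg), chr11:16751953-16752202 (plus strand, Egfr) and chr1:69108060-69108309 (minus strand, Erbb4). Capitals mark a cAMP response element (CRE), the palindrome TGACGTCA.
Areg: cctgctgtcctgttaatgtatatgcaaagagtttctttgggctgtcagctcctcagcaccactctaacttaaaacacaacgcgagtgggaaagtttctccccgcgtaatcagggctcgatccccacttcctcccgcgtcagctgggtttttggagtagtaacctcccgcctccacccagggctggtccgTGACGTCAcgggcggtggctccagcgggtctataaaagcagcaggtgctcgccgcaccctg
Egfr: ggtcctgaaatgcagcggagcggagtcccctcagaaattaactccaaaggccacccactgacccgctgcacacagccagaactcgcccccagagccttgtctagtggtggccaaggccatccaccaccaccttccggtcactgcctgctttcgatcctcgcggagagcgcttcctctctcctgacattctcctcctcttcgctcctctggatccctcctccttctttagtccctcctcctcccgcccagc
Erbb4: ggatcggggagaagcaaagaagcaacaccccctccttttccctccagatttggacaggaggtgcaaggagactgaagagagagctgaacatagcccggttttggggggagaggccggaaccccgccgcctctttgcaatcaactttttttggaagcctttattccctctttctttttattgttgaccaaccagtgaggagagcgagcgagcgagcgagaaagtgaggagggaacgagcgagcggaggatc
The CRE of Areg begins 61 bases before the start. Windows of 300 bases, from 250 before to 50 after the start, were searched on both strands for the CRE, for the AP-1 motif TGANTCA and for the CArG box of serum response factor. Over all 32851 windows in the table, 1.79% held the CRE, 7.81% the AP-1 motif and 1.63% the CArG box. Among the 6 windows of these genes, the CRE in Areg was the only match. A match describes the letters of the window and is not evidence that a factor binds there.

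Before infarction Hbegf was the most abundant of the 6 ligand genes and Erbb3 and Erbb2 the most abundant receptors. In sham, Hbegf stood at 7.85 ± 0.313 CPM per kb (SD, n = 3) by the deposited length, or 3.85 by its exon length in GENCODE M21, against 0.329 ± 0.0568 for Btc, 0.167 ± 0.0574 for Nrg1 and 0.136 ± 0.0787 for Tgfa. Ereg at 0.0153 ± 0.0134 CPM per kb and Areg at 0.0142 ± 0.0246 were at the edge of detection. Btc, Nrg1 and Tgfa stood in that order by their means, but the ranges of Nrg1 and Tgfa overlapped, as did those of Ereg and Areg. Among the receptors, Erbb3 at 2.52 ± 0.286 CPM per kb and Erbb2 at 2.43 ± 0.228 were level, and Erbb4 at 0.603 ± 0.0935 and Egfr at 0.487 ± 0.0797 were lower. The ranges of Erbb3 and Erbb2 overlapped, and so did those of Erbb4 and Egfr.

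**Figure D1:**
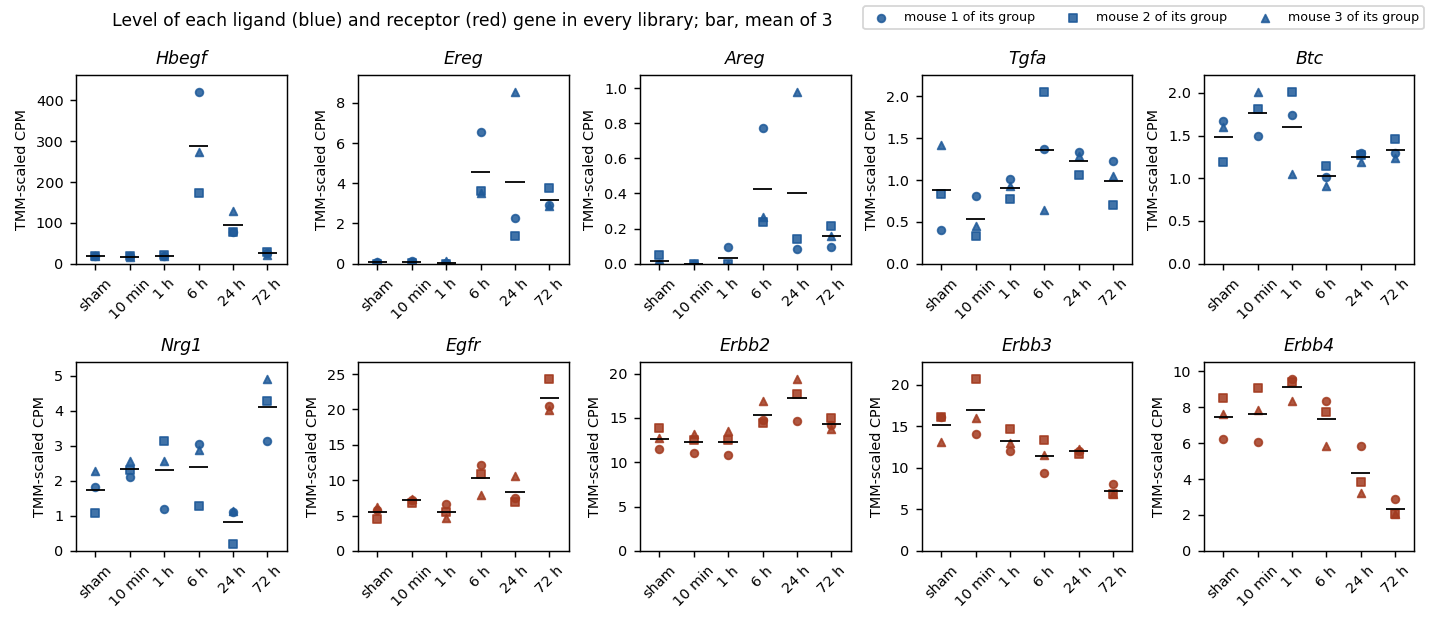
TMM-scaled CPM of each of the 10 genes in all 18 libraries (each symbol 1 mouse, bar the mean of 3, linear axes that start at 0, and symbols of the same shape in different groups are different mice). Hbegf is highest at 6 h, Ereg and Areg lie above sham from 6 h on, Egfr is highest at 72 h, and Erbb3 and Erbb4 are lowest at 72 h.

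No member was called at 10 min or at 1 h. By edgeR 0 of the 9 genes tested were called at 10 min, where 0.0736% of all genes were called, and 0 at 1 h, where 0.294% were. No member had an unadjusted p under 0.05 in either contrast (0 of 9), and DESeq2 and limma on FPKM also called 0 at both times. At 6 h 3 members were called, all higher (Hbegf, Ereg and Egfr), beside 28.4% of all genes, of which 16.3% were higher and 12.2% lower. At 24 h 5 were called, with Hbegf, Ereg, Egfr and Erbb2 higher and Erbb4 lower, beside 43.8% of all genes (23.7% higher and 20.2% lower). At 72 h 5 were called, with Ereg, Nrg1 and Egfr higher and Erbb3 and Erbb4 lower, beside 66.4% (34.2% higher and 32.2% lower). Over the 5 contrasts with sham together, edgeR's F test called 7 of the 9, all but Tgfa and Btc, against 78.4% of all genes. With 9 genes tested, the members' shares at 6, 24 and 72 h and in the F test were thus near those of all genes.

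Between neighbouring times, 0 of 9 members were called by edgeR from 10 min to 1 h (1 had an unadjusted p under 0.05, and DESeq2 and limma on FPKM called 0), beside 0.307% of all genes. From 1 h to 6 h 3 were called higher (Hbegf, Ereg and Egfr), beside 24.5% called in either direction. From 6 h to 24 h 3 were called lower (Hbegf, Nrg1 and Erbb4), beside 27.8%. From 24 h to 72 h 5 were called, with Nrg1 and Egfr higher and Hbegf, Erbb3 and Erbb4 lower, beside 50.5%. The members' shares in the steps from 1 h on were near those of all genes as well.

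Hbegf, a ligand of the EGF receptor and ErbB4 that also serves as the entry receptor of diphtheria toxin, was steady for the first hour and then rose steeply. The gene lies at chr18:36504927-36515805 on the minus strand (GRCm38, GENCODE M21; ENSMUSG00000024486) and has 5 exon blocks. Its level was 19.3, 17.8 and 18.8 CPM in the sham libraries, 15.6 to 18.6 CPM at 10 min and 17.7 to 20.6 CPM at 1 h. At 6 h it was 421, 173 and 273 CPM, at 24 h 78.4, 78.8 and 129 CPM, and at 72 h 26.5, 27.8 and 22.1 CPM. Every library at 6, 24 and 72 h lay above every sham library, and the 6 h and 24 h groups did not overlap. At 6 h Hbegf was 15.5-fold above sham (log2 difference 3.96, SE 0.28, edgeR adjusted p = 5.09e-07), and without replicate 1 of that time the difference was 3.58 (edgeR adjusted p = 3.9e-08). At 24 h it was 5.11-fold above sham (2.35, SE 0.26, edgeR adjusted p = 1.1e-05), and without replicate 3 of 24 h the difference was 2.08. It fell from 6 h to 24 h (log2 difference -1.60, edgeR adjusted p = 0.000376) and again from 24 h to 72 h (-1.90, edgeR adjusted p = 1.71e-05).

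The rise of Hbegf from 1 h to 6 h was of the same size as that against sham (log2 difference 3.90, SE 0.28, edgeR adjusted p = 6.38e-07). By 72 h the level was 1.37-fold that of sham and was not called (log2 difference 0.45, SE 0.26, edgeR adjusted p = 0.133). That last value depends on scaling, since without TMM the difference was 1.03 with an edgeR adjusted p of 0.00122, and the median of all genes was 0.61, against 0.03 with TMM. The fit on the sham and 72 h libraries alone also called it, at 0.46 with an edgeR adjusted p of 0.00078, as did the fits without replicate 1 or 2 of 6 h (edgeR adjusted p = 0.0473 and 0.0442).

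Ereg and Areg, which are neighbours on chromosome 5, were almost absent before 6 h. Ereg (chr5:91074622-91093646, plus strand, ENSMUSG00000029377) had 0 to 2 counts in each of the 9 libraries of sham, 10 min and 1 h. It had 110, 76 and 66 counts at 6 h, 53, 39 and 166 at 24 h, and 93, 123 and 90 at 72 h. In CPM these were 6.56, 3.64 and 3.52 at 6 h, 2.29, 1.38 and 8.56 at 24 h, and 2.93, 3.75 and 2.86 at 72 h. All 9 later libraries lay far above the 9 earlier ones, and replicate 3 at 24 h was the highest of all.

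Because the 3 sham libraries held only 4 counts of Ereg, its rise is given as a ratio of summed counts with a 95% counting interval. Relative to sham the level was 68.7 (26.5 to 254) at 6 h, 56.1 (21.6 to 207) at 24 h and 49.1 (19.0 to 181) at 72 h. Without replicate 1 the 6 h ratio was 55.1 (21.1 to 205), and without replicate 3 the 24 h ratio was 27.5 (10.4 to 103). The intervals cover counting error only and not the spread between mice, and PCR copies without molecular identifiers are not independent. Ereg was called at each of these times, with edgeR adjusted p values of 8.03e-05, 5.66e-05 and 1.95e-05. It was also called at 6 h without replicate 1 of that time and at 24 h without replicate 3, where the fitted log2 difference went from 5.83 to 4.70 (edgeR adjusted p = 0.000313 and 7.15e-06). Neither later step was called, at log2 differences of -0.19 from 6 h to 24 h and -0.33 from 24 h to 72 h (edgeR adjusted p = 0.810 and 0.601). Both steps turned on replicate 3 at 24 h. Without it the first was -1.32 (edgeR adjusted p = 0.0101) and the second was 0.80 (edgeR adjusted p = 0.0594).

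Exons of Ereg share 141 bases with Gm19610, a gene annotated on the opposite strand. Gm19610 had at most 21 counts in a library, and how the counting used strand is not given in the sources used here.

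Areg (chr5:91139599-91148432, plus strand, ENSMUSG00000029378) had 0, 1 and 0 counts in the sham libraries, 0 in all 3 at 10 min, and 2, 0 and 0 at 1 h. At 6 h it had 13, 5 and 5 counts, at 24 h 2, 4 and 19, and at 72 h 3, 7 and 5. The counts are small, but every library from 6 h on lay above every sham library in CPM. The libraries with most Areg, replicate 1 at 6 h (0.775 CPM) and replicate 3 at 24 h (0.980 CPM), were also those with most Ereg. The ratio to sham was 25.1 (95% counting interval 4.07 to 1030) at 6 h, 21.7 (3.56 to 892) at 24 h and 9.62 (1.48 to 405) at 72 h. Those 2 libraries set much of the first 2 ratios. Without replicate 1 the 6 h ratio rested on 10 counts and was 15.5 (2.21 to 674), and without replicate 3 the 24 h ratio rested on 6 counts and was 7.18 (0.871 to 330), an interval that takes in 1. In a fit of all libraries without the low-count filter Areg had an edgeR adjusted p of 0.00484 at 6 h, 0.00378 at 24 h and 0.0586 at 72 h.

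Tgfa and Btc, the remaining ligands of the EGF receptor, were called in no contrast. Tgfa (chr6:86195223-86275719, plus strand) had 8 to 43 counts per library, and its largest difference from sham was at 10 min (log2 -0.80, SE 0.48, edgeR adjusted p = 0.819). Its sham libraries alone ran from 0.404 to 1.42 CPM. Btc (chr5:91357261-91402994, minus strand) had 1.67, 1.19 and 1.60 CPM in sham and 1.01, 1.15 and 0.905 CPM at 6 h. All 3 libraries at 6 h were below all 3 of sham, but the difference was not called (log2 -0.54, SE 0.26, edgeR adjusted p = 0.132).

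Nrg1, the neuregulin ligand of ErbB3 and ErbB4, lay below sham at 24 h and above it at 72 h. The gene spans chr8:31814551-32884029 on the minus strand (ENSMUSG00000062991). Its level was 1.82, 1.09 and 2.27 CPM in sham, 1.12, 0.212 and 1.13 CPM at 24 h, and 3.12, 4.26 and 4.90 CPM at 72 h. The 24 h libraries overlapped sham narrowly, while all 3 libraries at 72 h lay above all 3 of sham and all 3 of 24 h. From 10 min to 6 h the libraries ran from 1.21 to 3.14 CPM and overlapped sham at each time.

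The 24 h level of Nrg1 was not called against sham (log2 difference -1.12, SE 0.49, edgeR adjusted p = 0.0721), but DESeq2 called it (adjusted p = 0.047), as did edgeR without replicate 2 of sham (-1.36, adjusted p = 0.0498). At 72 h Nrg1 was 2.36-fold above sham (1.24, SE 0.43, edgeR adjusted p = 0.0166). That call was lost without replicate 2 of sham (0.99, edgeR adjusted p = 0.0791) or without replicate 3 at 72 h (1.09, edgeR adjusted p = 0.0581). The rise from 24 h to 72 h was larger, 5.13-fold (2.36, SE 0.46, edgeR adjusted p = 0.000385). The fall from 6 h to 24 h (-1.58, SE 0.48, edgeR adjusted p = 0.0211) was lost when replicate 1 or 3 of 6 h or replicate 2 of 24 h was left out (edgeR adjusted p = 0.0699, 0.0718 and 0.0787). In all it was lost in 7 of 26 alternatives, among them the fits of only the groups compared (edgeR adjusted p = 0.13) and by limma on FPKM (adjusted p = 0.11). Replicate 2 at 24 h held 6 counts of Nrg1. A gene-level count does not separate the many isoforms of Nrg1.

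**Figure D2:**
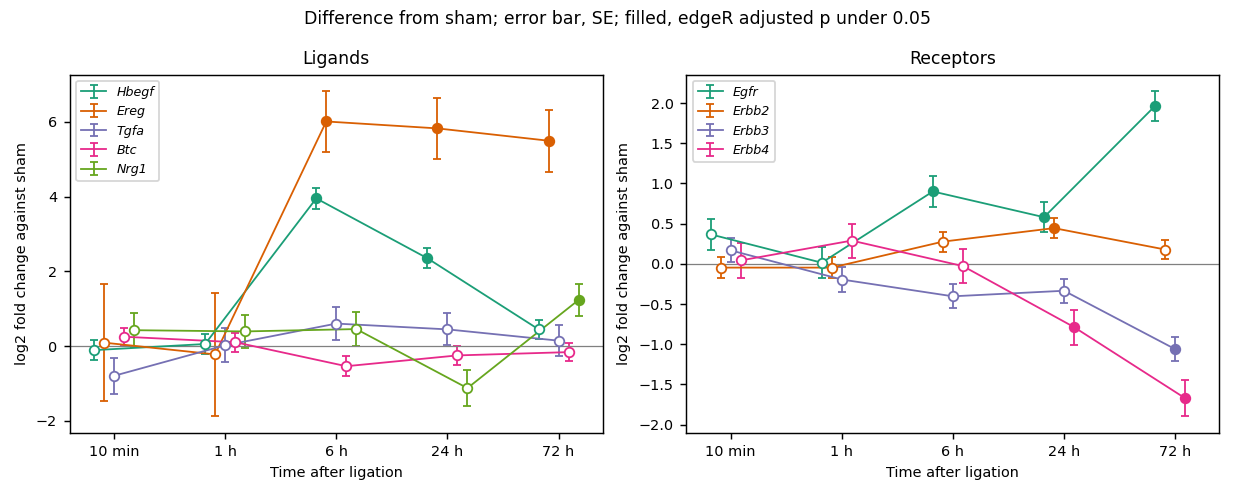
Log2 fold change against sham at each time for the 5 ligand and 4 receptor genes tested (error bars, SE of the edgeR model, filled points with an adjusted p under 0.05, all against the same 3 sham libraries). Ereg and Hbegf lie highest at 6 h, and Egfr parts from Erbb3 and Erbb4 toward 72 h. The log2 values of Ereg rest on 4 sham counts and are not bounds.

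Among the receptors, Egfr was the only one called higher at all 3 late times. Egfr (chr11:16752203-16918158, plus strand, ENSMUSG00000020122) had 5.76, 4.51 and 6.26 CPM in sham, 12.2, 10.9 and 7.94 CPM at 6 h, 7.42, 6.86 and 10.6 CPM at 24 h, and 20.5, 24.3 and 19.9 CPM at 72 h. Every library at these times lay above every sham library, and the 72 h libraries lay above all others. At 10 min the libraries ran from 6.80 to 7.37 CPM, also above sham, without being called (log2 difference 0.37, SE 0.19, edgeR adjusted p = 0.779).

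Egfr rose 1.87-fold at 6 h (log2 difference 0.90, SE 0.19, edgeR adjusted p = 0.0019; 0.77 without replicate 1 of that time, edgeR adjusted p = 0.0135) and 3.91-fold at 72 h (1.97, SE 0.19, edgeR adjusted p = 4.15e-08). The 24 h difference was 0.58 (SE 0.19, edgeR adjusted p = 0.0188). It was no longer called without replicate 3 at 24 h (0.37, edgeR adjusted p = 0.133) or without replicate 2 of sham (0.46, edgeR adjusted p = 0.0950). From 24 h to 72 h Egfr rose 2.61-fold (1.39, SE 0.18, edgeR adjusted p = 4.92e-06).

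Erbb2, the shared partner receptor, was called against sham at 24 h alone. Erbb2 (chr11:98412470-98437716, plus strand, ENSMUSG00000062312) had 11.5, 13.9 and 12.7 CPM in sham, 14.7, 17.7 and 19.4 CPM at 24 h, and 14.2, 15.0 and 13.8 CPM at 72 h. The 24 h libraries lay above all sham libraries, and the 72 h libraries overlapped them. Erbb2 rose 1.36-fold at 24 h (log2 difference 0.44, SE 0.12, edgeR adjusted p = 0.0073). Without replicate 3 of 24 h, Erbb2 was still called at that time (0.36, edgeR adjusted p = 0.0398). At 72 h it was not called (0.18, SE 0.12, edgeR adjusted p = 0.209), although without TMM it was (0.76, edgeR adjusted p = 8.22e-05).

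Erbb3 and Erbb4, the receptors of neuregulins, were lower late. Erbb3 (chr10:128567523-128589652, minus strand, ENSMUSG00000018166) had 16.2, 16.1 and 13.2 CPM in sham, 9.36, 13.4 and 11.5 CPM at 6 h, 12.0, 11.7 and 12.3 CPM at 24 h, and 8.11, 6.82 and 6.81 CPM at 72 h. Libraries at 24 h and 72 h were all below sham, and those at 6 h overlapped it. Erbb3 fell to 0.479 of sham at 72 h (log2 difference -1.06, SE 0.15, edgeR adjusted p = 6.08e-06). The differences at 6 h (-0.40, edgeR adjusted p = 0.0531) and 24 h (-0.34, edgeR adjusted p = 0.0778) were not called. The 6 h difference lay close to the threshold and was called in 9 of 27 alternatives, such as without TMM (-0.50, edgeR adjusted p = 0.0277), while without replicate 1 of 6 h it was -0.28 (edgeR adjusted p = 0.236).

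Erbb4, the receptor through which neuregulin acts on cardiomyocytes, spans chr1:68032186-69108059 on the minus strand (ENSMUSG00000062209). It had 6.22, 8.51 and 7.64 CPM in sham, 8.34, 7.75 and 5.86 CPM at 6 h, 5.83, 3.86 and 3.25 CPM at 24 h, and 2.90, 2.04 and 2.07 CPM at 72 h. The 6 h libraries overlapped sham, the 24 h libraries were all below it, and the 72 h libraries were below those. Erbb4 fell to 0.580 of sham at 24 h (log2 difference -0.79, SE 0.22, edgeR adjusted p = 0.00721) and to 0.314 at 72 h (-1.67, SE 0.22, edgeR adjusted p = 2.86e-06). Without replicate 3 of 24 h, Erbb4 was still called at 24 h (-0.63, edgeR adjusted p = 0.038). Its fall from 6 h to 24 h (-0.76, SE 0.22, edgeR adjusted p = 0.015) was lost without replicate 1 of 6 h or replicate 2 or 3 of 24 h (edgeR adjusted p = 0.0549, 0.0603 and 0.0592). In all it was lost in 7 of 27 alternatives, among them the fits without TMM (-0.47, edgeR adjusted p = 0.0915), of only the groups compared (edgeR adjusted p = 0.106) and by limma on FPKM (adjusted p = 0.135). Without TMM the 72 h differences of Erbb3 and Erbb4 were -0.47 and -1.09, and both were still called (edgeR adjusted p = 0.0143 and 0.00019). Between 24 h and 72 h both fell as well, Erbb3 by 0.73 (edgeR adjusted p = 0.000595) and Erbb4 by 0.89 on the log2 scale (edgeR adjusted p = 0.00322). Without TMM these steps were -0.34 and -0.49 and were not called (edgeR adjusted p = 0.0919 and 0.0738).

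The make-up of receptor RNA at 72 h differed from that of sham. The 4 receptor genes summed to 6.04 ± 0.332 CPM per kb in sham and 6.05 ± 0.312 at 72 h (SD, n = 3), but without TMM to 5.59 ± 0.210 and 8.41 ± 0.305. Egfr made up 8.12% ± 1.72 of that sum in sham and 31.5% ± 2.25 at 72 h. Erbb3 made up 41.6% ± 3.92 and 19.9% ± 2.03, and Erbb4 9.98% ± 1.26 and 3.13% ± 0.633. Erbb2 took the largest share at 24 h, 51.7% ± 3.79, from 40.3% ± 2.59 in sham. The shares do not depend on the scaling of the libraries.

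The ratio of Egfr to Erbb4, both per kb, is also free of library scaling. It was 1.01, 0.579 and 0.894 in sham, 1.59, 1.53 and 1.48 at 6 h, 1.39, 1.94 and 3.57 at 24 h, and 7.72, 12.99 and 10.5 at 72 h. From 6 h on every ratio lay above every sham ratio (exact two-sided permutation test on the log2 ratio, p = 0.1 at each of the 3 times, the smallest that 3 against 3 can give). At 10 min and 1 h the ratios overlapped sham (exact permutation p = 0.4 at both). Egfr had the largest rise of the receptors at 72 h and Erbb4 the largest fall. The separation there thus follows from the choice of pair, and the test adds no support to it.

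Ligand RNA moved in its sum as well as its make-up. The 6 ligand genes summed to 8.51 ± 0.396 CPM per kb in sham, 124 ± 53.2 at 6 h, 42.0 ± 13.5 at 24 h and 12.5 ± 1.32 at 72 h. Hbegf made up 92.3% ± 1.40 of the sum in sham, 98.2% ± 0.501 at 6 h and 86.0% ± 1.70 at 72 h. Ereg went from 0.175% ± 0.153 in sham to 6.17% ± 0.540 at 72 h, the second largest share there. With Egf, Epgn, Nrg2 and Nrg4 added to the sum, Hbegf made up 78.0% ± 1.52 in sham, 96.8% ± 1.05 at 6 h and 82.3% ± 1.66 at 72 h. In sham Nrg2 then held 7.61% ± 3.56 and Egf 4.24% ± 0.614. The deposited length of Hbegf, 2373 bases, is shorter than its 4834 exon bases in GENCODE M21. With the latter the sums were 4.52 ± 0.250 CPM per kb in sham, 62.0 ± 26.5 at 6 h, 21.6 ± 7.35 at 24 h and 7.01 ± 0.687 at 72 h. The shares of Hbegf were then 85.4%, 96.4% and 75.1% in sham, at 6 h and at 72 h, and Hbegf led at each of these times either way.

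**Figure D3:**
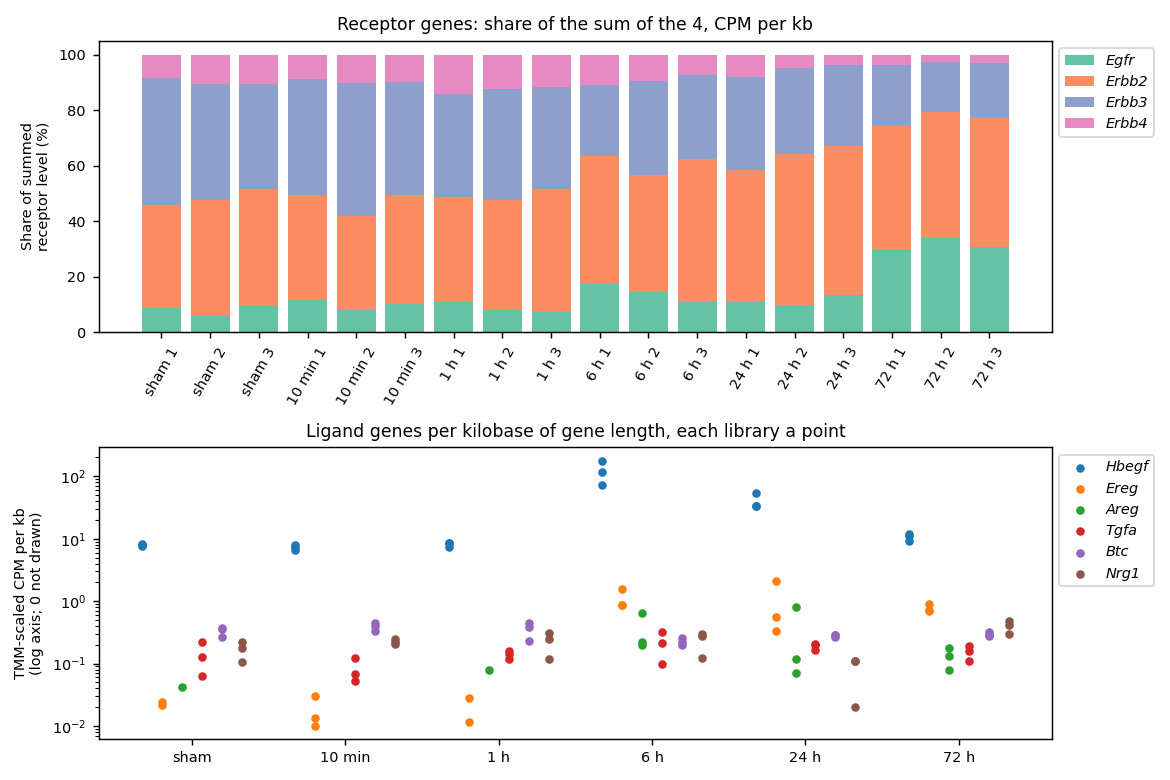
Upper panel, share (%) of each receptor gene in the sum of the 4 receptors per kb in each library, with libraries named by group and replicate. Lower panel, CPM per kb of the 6 ligand genes on a log axis, each library a point and values of 0 left out. Egfr takes 29.6% to 34.0% of receptor RNA at 72 h, and Hbegf lies above the other ligands in every library.

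The samples were whole tissue, so in each of these results fewer cells of a type and less RNA per cell cannot be told apart. Summed cardiomyocyte markers (10 genes, none at 0) ran from 80100 to 85570 CPM in sham, 35690 to 54920 at 24 h and 20490 to 27110 at 72 h, where all 10 were called lower. Erbb4 had its lowest levels in the same libraries, with 2.04 and 2.07 CPM where the markers summed to 20490 and 21270. Schwann cell markers, listed because these cells depend on ErbB3, summed to 18.4 to 20.95 CPM in sham and 9.68 to 12.0 at 72 h, where 5 of the 6 tested were called lower. Within 72 h the order ran the other way, with Erbb3 at 8.11 CPM where these markers summed to 9.68 and at 6.81 CPM where they summed to 12.0. The part of either cell type in the changes of Erbb4 and Erbb3 was not tested.

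Neutrophil markers (8 genes, with Ly6g at 0 in every sham library) summed to 5.38 to 7.57 CPM in sham, 269 to 927 at 6 h, 108 to 985 at 24 h and 66.3 to 79.8 at 72 h. Of the 6 h sums, Lcn2 held 164 to 175 CPM in every library, while S100a8 ran from 30.5 to 250 CPM. The highest library at 6 h was replicate 1 and the highest at 24 h replicate 3, which also led their groups in Hbegf, Ereg and Areg. Both also led in monocyte and macrophage markers, at 441 and 928 CPM. Ereg followed the order of neutrophil markers at both times and Hbegf did not. Ereg followed the order of monocyte and macrophage markers at both times as well. Hbegf followed that of endothelial markers. In replicates 1 to 3 these summed to 2327, 1783 and 1926 CPM at 6 h and 1314, 1464 and 1499 CPM at 24 h. With 3 libraries in a group, such orders only describe the libraries. Replicate 3 at 6 h held fewer neutrophil markers than replicate 2 (269 against 433 CPM) but more Hbegf (273 against 173 CPM). At 72 h the sum of neutrophil markers was lower than at 6 h, while Ereg stood at 2.86 to 3.75 CPM. Within that list Csf3r and Mmp9 were not lower. Their means were 23.6 and 9.24 CPM at 6 h and 24.8 and 18.3 CPM at 72 h. Monocyte and macrophage markers (8 genes, none at 0) went from 190 to 212 CPM in sham to 535 to 928 at 24 h and 2797 to 3599 at 72 h, with 8 of 8 called higher at both times. Fibroblast markers (7 genes, none at 0) went from 763 to 831 CPM in sham to 664 to 999 at 24 h and 8111 to 10320 at 72 h. At 24 h 4 were called higher and 3 lower, and at 72 h 7 of 7 were higher. Most of the 72 h sum was Col1a1, Col1a2 and Postn (means of 3549, 2971 and 1565 CPM). Pdgfra, Tcf21, Dpt and Dcn went from 40.1, 12.6, 116 and 412 CPM in sham to 79.3, 30.9, 273 and 514 CPM at 72 h. Egfr was highest in the 72 h libraries too. At 6 h, where Egfr was above sham, fibroblast markers summed to 657 to 804 CPM and monocyte and macrophage markers to 187 to 441 CPM. Of the latter, 5 of 8 were called higher and 1 lower at 6 h. Within 6 h and within 24 h Egfr followed the library order of macrophage and of neutrophil markers, and within 72 h it followed neither. It followed the order of fibroblast markers within 6 h but not within 24 h or 72 h. The part of these cells in the members' changes was not tested.

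The other EGF family ligands were Egf, Nrg2, Nrg4 and Epgn. Of the 3 tested, 2 were called lower and none higher at 24 h and at 72 h, with none called up to 6 h. Over all genes 20.2% were lower at 24 h and 32.2% at 72 h, and with 3 genes tested the count says nothing about the list. Egf, the founding ligand of the EGF receptor, fell by 0.96 at 24 h (SE 0.23, edgeR adjusted p = 0.0027) and by 1.42 at 72 h (SE 0.23, edgeR adjusted p = 2.88e-05) on the log2 scale. Nrg2, a second neuregulin for ErbB3 and ErbB4, fell by 1.44 at 24 h (SE 0.41, edgeR adjusted p = 0.00875) and by 1.83 at 72 h (SE 0.41, edgeR adjusted p = 0.000693). At 72 h Nrg2 was therefore below sham where Nrg1 was above it. Nrg4, which binds ErbB4, was not called (log2 -0.58 at 72 h, SE 0.28, edgeR adjusted p = 0.0754). Epgn had 0 to 7 counts per library and was not tested. Nrg3 was not analysed here.

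Of 11 genes of ligand release, proteases and their regulators, 7 were called higher and 0 lower at 6 h, 6 higher and 1 lower at 24 h, and 8 higher and 1 lower at 72 h. The shares called higher were 63.6%, 54.5% and 72.7%, beside 16.3%, 23.7% and 34.2% of all genes. Their median log2 difference was 0.53, 0.42 and 0.61, against -0.01, 0.01 and 0.03 over all genes. Adam12, a metalloprotease that can cut HB-EGF, rose by 3.45 at 6 h (SE 0.38, edgeR adjusted p = 7.66e-06) and 7.18 at 72 h (SE 0.33, edgeR adjusted p = 1.19e-11). Adam9 rose by 0.77 at 6 h and 1.45 at 72 h (edgeR adjusted p = 5.75e-05 and 2.27e-09). Timp3, an inhibitor of Adam17, is counted among the 7 called higher at 6 h (0.83, edgeR adjusted p = 0.00189). It was then lower at 24 h (-0.51, edgeR adjusted p = 0.0224) and at 72 h (-1.87, edgeR adjusted p = 5.29e-08). Adam17 itself, the main sheddase of most of these ligands, was added after its values were seen. It was not called at 6 h (-0.14, edgeR adjusted p = 0.450) and was higher at 72 h (1.02, edgeR adjusted p = 9.63e-07).

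Of 15 genes of receptor feedback, 3 were called higher at 1 h and 0 lower, beside 0.288% of all genes called higher, while no ligand or receptor was called. Those 3, named here because of their values, were Errfi1, an inhibitor that binds the ErbB kinases (log2 2.12, SE 0.40, edgeR adjusted p = 0.0469), Dusp6, a phosphatase of ERK (0.88, SE 0.18, edgeR adjusted p = 0.0468), and Spry1, an inhibitor of receptor signalling (0.70, SE 0.14, edgeR adjusted p = 0.0333). At 6 h 8 were higher and 0 lower, at 24 h 7 and 2, and at 72 h 5 and 2. The shares called higher were 53.3%, 46.7% and 33.3%, beside 16.3%, 23.7% and 34.2% of all genes, so that at 72 h the share was near that of all genes. Their median log2 difference was 0.13 at 1 h, 0.41 at 6 h, 0.27 at 24 h and 0.14 at 72 h. Cblb, a ubiquitin ligase of activated receptors, rose by 1.40 at 6 h (edgeR adjusted p = 3.08e-05) and 0.82 at 72 h (edgeR adjusted p = 0.000525). Spry2 rose at 6 h by 1.04 (edgeR adjusted p = 0.000132) and was not called at 72 h (-0.32, edgeR adjusted p = 0.0871). Spred2, a brake on Raf, fell by 0.34 at 24 h and 0.83 at 72 h (edgeR adjusted p = 0.00301 and 8.41e-08).

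Of the 22 genes that relay the signal inside the cell, 4 were called higher and 5 lower at 6 h, 6 and 2 at 24 h, and 5 and 9 at 72 h. The shares called in either direction were 40.9%, 36.4% and 63.6%, beside 28.4%, 43.8% and 66.4% of all genes, and those at 24 h and 72 h were near or below the share of all genes. The list had median log2 differences of 0.09, 0.04 and -0.15. The adaptor Shc1 rose by 0.53, 0.73 and 1.01 at these times (edgeR adjusted p = 0.00511, 0.000232 and 1.3e-06). The GTPase Nras rose by 0.40, 0.82 and 1.00 (edgeR adjusted p = 0.0104, 1.68e-05 and 1.71e-07). The kinase Src was not called at 6 h (0.09, edgeR adjusted p = 0.749) and rose by 0.67 at 24 h and 1.42 at 72 h (edgeR adjusted p = 0.00476 and 8.5e-07).

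Genes with the most similar course were found for each tested member by Pearson correlation of log2 CPM over the 18 libraries, which share 6 groups and their scaling, and are given as a description. For Hbegf they were Bcr (r = 0.983) and Mt2 (r = 0.975), a metallothionein, which went from 0.344 CPM in sham to 34.7 CPM at 6 h and 1.19 CPM at 72 h. For Ereg they were Ubash3b (r = 0.989) and Myd88 (r = 0.988), the adaptor of Toll-like receptors, at 9.83 CPM in sham and 30.2, 24.8 and 29.1 CPM from 6 h on. For Egfr Cggbp1 is given (r = 0.968). For Erbb4 they were Atpaf1 (r = 0.980), an assembly factor of the mitochondrial ATP synthase, and Vwa8 (r = 0.977), a mitochondrial protein, which went from 288 CPM in sham to 74.3 CPM at 72 h. For Erbb3 they were Itfg2 (r = 0.95) and Ppp1r26 (r = 0.945). For Erbb2 Clcf1 is given (r = 0.887), a cytokine.

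Nrg1 was most like Smoc1 (r = 0.878) and Comp (r = 0.854), a matrix protein that stood at 2.77 CPM in sham, 0.381 CPM at 24 h and 10.2 CPM at 72 h. Btc was closest to Manea (r = 0.835) and Mblac2 (r = 0.817). Tgfa was closest to the pseudogene Rps13-ps2 (r = 0.743) and to Rpl17 (r = 0.720), which is the weakest match of the set. Between members the closest pairs in size were Egfr with Erbb3 (r = -0.839) and Egfr with Erbb4 (r = -0.796), then Hbegf with Ereg (r = 0.773) and Erbb3 with Erbb4 (r = 0.772).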

How the data were processed

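Read counts per Ensembl gene and FPKM values for 18 libraries were deposited by the authors, and both series tables matched the sample tables. The submitters' processing notes name cutadapt 1.18, HISAT2 2.1.0, featureCounts and mm10, without role or order, and use of strand is not given in the sources used here. Depth was 18.2 to 25.1 M counts, and a floor of 3 counts covers counting error only. The deposited FPKM columns of replicates 2 and 3 at 6 h held each other's values, within 1 group. Libraries are from separate mice.

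The counts were fitted with edgeR 4.0.16 under R 4.3.3: filterByExpr (14272 genes removed, 16311 kept), TMM, glmQLFit (robust) with 1 mean per group over all 18 libraries, and two-sided glmQLFTest, with Benjamini-Hochberg adjustment over all genes tested and a threshold of 0.05. The steps were tested on simulated data. Alternatives were other scalings and filters, DESeq2 1.42.0, limma 3.58.1 on log2(deposited FPKM + 1), only the groups compared, a replicate block and each library left out. Symbols and coordinates are from GENCODE M21 on GRCm38, and 9 of 10 gene lengths equalled its exon length. The members and all gene lists were chosen with earlier results of these data known. Named genes are the 10 members, the 3 genes of each pathway list with the smallest F test p, and the 2 genes most correlated with each tested member, leaving out predicted genes and those averaging under 50 counts. For Egfr and Erbb2, 1 of the 2 correlated genes is not reported here.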

Additional observations from a re-analysis of the deposited data

Results flagged for a closer look

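Nrg1 had fitted differences from sham of opposite sign at neighbouring times, with the difference between those times called by edgeR. Its log2 difference from sham was 0.46 at 6 h, then -1.12 at 24 h, then 1.24 at 72 h. Only the last of these was called. The change from 6 h to 24 h was -1.58 (edgeR adjusted p = 0.0211) and the change from 24 h to 72 h was 2.36 (edgeR adjusted p = 0.000385). Ereg was flagged in the same way for the step from 1 h to 6 h, a fitted log2 difference of 6.24 (edgeR adjusted p = 0.000135). Its sign at 1 h, -0.22 on the log2 scale, rests on 3 counts against 4 in sham and has no weight.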

How the results depend on the processing

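Of 24 called differences of single members, 18 were called under every alternative in which the gene was tested, and direction was kept in all of them. At 72 h a filter of at least 10 counts in every library left 6 members tested and 3 called, against 5. The 24 h against 6 h contrast called 1 member, against 3, when only the groups compared were fitted. The 72 h against 24 h contrast called 3, against 5, without TMM and with limma on log2(FPKM + 1); on that scale differences of low genes are understated. Leaving out each library in turn gave 3 to 5 calls at 6 h, 4 to 6 calls at both 24 h and 72 h, 3 to 4 from 1 h to 6 h, 1 to 4 from 6 h to 24 h, 5 to 6 from 24 h to 72 h and 7 to 9 in the F test. With a group of 2 the low-count filter is looser, and Areg was tested in such fits. Replicate 1 of 6 h and replicate 3 of 24 h were left out together after the data were seen: Ereg from 24 h to 72 h then reversed to 0.80 (edgeR adjusted p = 0.0325), and with single libraries left out it ran from -0.76 to 0.80. The count ratios of Areg and Ereg without these libraries, and the receptor sum without TMM and ligand sum with the other length of Hbegf, were also added after the data were seen. Deviations of same-numbered mice correlated at -0.256 to 0.252 and in no contrast were all 3 pairs over 0.1. The numbers were therefore not used as pairs in the main fit, though this check cannot exclude a pairing. With the replicate block 4 members were called at 6 h and 4 from 1 h to 6 h, against 3, and 6 from 24 h to 72 h, against 5; the added calls were Erbb3 at 6 h (adjusted p = 0.0437), Erbb2 from 1 h to 6 h (0.0369) and Erbb2 from 24 h to 72 h (0.0482), and no other call changed. Over all genes 12 were called at 10 min, against 26 without a filter, 60 by DESeq2, 2 by limma on FPKM, 360 from the groups compared, 53 without those 2 libraries and 0 to 24 with 1 library left out. At 1 h 48 were called, against 95 by DESeq2, 190 from the groups compared, 108 without those 2 libraries and 31 without replicate 2 of sham. At 6 h 4639 were called, against 2926 without replicate 1 of that time. Without TMM the median of all genes moved to -0.12 (6 h), 0.20 (24 h) and 0.61 (72 h), and 40.6%, 75.5% and 79.9% of calls were higher, against 57.2%, 54% and 51.4%. The cause of these shifts was not tested.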
